A study of Homo sapiens with 14 samples.

Results

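Metallothionein and zinc handling genes were examined in 14 RNA sequencing libraries made from SK-N-BE2 cells, a long-established line derived from a neuroblastoma in which the MYCN gene is amplified. The set was chosen by gene symbol and held 10 of the 19923 genes in the count tables. It comprised 7 metallothioneins (MT2A, MT1X, MT1E, MT1F, MT1G, MT1M and MT3), the zinc exporter SLC30A1, the zinc importer SLC39A10 and the transcription factor MTF1. The libraries formed 7 groups of 2 replicates in 2 labelled batches. Batch 1 held cells of WT genotype given H2O, 10 µM CoCl2 or 50 µM CoCl2, and it addressed the response to cobalt. Batch 2 held WT cells and cells of genotype TET2 KO, numbered 1, 2 and 3, all with no treatment, and it addressed loss of TET2, an enzyme that oxidises 5-methylcytosine in DNA. All groups were grown in RPMI1640 medium with serum. The labels give neither the time in CoCl2, nor how the knockouts were made, nor whether a number marks a clone, nor whether replicates were separate cultures, so p-values measure the spread between these libraries, which may be technical.

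Metallothioneins are small cysteine-rich proteins that bind zinc and copper and also take up non-physiological metals such as cadmium. Their transcription is controlled by MTF1, a zinc-finger protein that senses free zinc and binds metal response elements in the promoters of metallothionein genes and of SLC30A1. SLC30A1 (ZnT1) carries zinc out of the cell across the plasma membrane and SLC39A10 (ZIP10) carries it in. Cobalt chloride is a metal salt often used to stabilise hypoxia-inducible factors, which bind hypoxia response elements.

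The promoters of MT2A, MT1X and SLC30A1 are shown because these 3 genes were higher in both CoCl2 groups and in TET2 KO 2, as described further on. Each sequence holds the 250 bases before the RefSeq start of the gene, read 5′ to 3′ on the gene's own strand in build GRCh38.p14. They lie at chr16:56608334-56608583 (plus strand), chr16:56682220-56682469 (plus strand) and chr1:211579162-211579411 (minus strand). Capitals mark matches to the metal response element core.
MT2A: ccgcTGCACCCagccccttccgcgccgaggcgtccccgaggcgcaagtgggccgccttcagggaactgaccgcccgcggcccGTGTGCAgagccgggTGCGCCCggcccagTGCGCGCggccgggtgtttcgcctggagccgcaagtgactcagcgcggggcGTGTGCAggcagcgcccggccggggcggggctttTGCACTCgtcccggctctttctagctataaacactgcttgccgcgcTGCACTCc
MT1X: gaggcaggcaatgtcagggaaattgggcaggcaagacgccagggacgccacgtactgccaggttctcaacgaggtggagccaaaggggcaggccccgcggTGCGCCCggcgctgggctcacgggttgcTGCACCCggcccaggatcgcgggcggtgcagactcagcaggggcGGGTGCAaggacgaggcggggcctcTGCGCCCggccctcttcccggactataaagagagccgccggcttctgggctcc
SLC30A1: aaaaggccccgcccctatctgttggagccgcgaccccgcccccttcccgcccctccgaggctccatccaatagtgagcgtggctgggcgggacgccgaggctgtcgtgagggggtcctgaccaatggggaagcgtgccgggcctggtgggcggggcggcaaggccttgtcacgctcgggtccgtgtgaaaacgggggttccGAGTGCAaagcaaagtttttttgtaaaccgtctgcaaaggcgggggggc

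The metal core was searched as TGCACNC or TGCGCNC on both strands, and the hypoxia core as ACGTG or GCGTG on both strands. MT2A held 7 metal core matches between bases -246 and -2 before the start, MT1X held 4 between bases -150 and -47, and SLC30A1 held 1 at bases -49 to -43. Of 21271 RefSeq promoter windows of the same length, 28.5% held at least 1 metal core match, 1.88% held 3 or more and 0.127% held 5 or more. The hypoxia core was found once in MT2A, at bases -90 to -86 where it overlaps a metal core match, once in MT1X and 3 times in SLC30A1, against 49.5% of all windows with at least 1. No metal core match was found in the window of MTF1 or in either window of SLC39A10. RefSeq windows were found for these 5 of the 10 genes, and MT1E, MT1F, MT1G, MT1M and MT3 had no entry. A match describes letters in this window and is not evidence of binding.

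The 6 libraries of batch 1 held between 31214128 and 39540111 counts each, and the 8 of batch 2 held between 52095024 and 59263320, mostly single reads of a pair. On the CPM scale, in which counts are divided by a scaled library total, TET2 mRNA was 64.8 and 70.8 CPM in WT and 68.2 to 91.1 CPM over the 6 libraries labelled TET2 KO. It was therefore not lower under the label. Against WT it was called higher in TET2 KO 1 (log2 fold change 0.21) and TET2 KO 2 (0.40) and was not called in TET2 KO 3 (0.08). Directions given for the knockouts rest on the labels. The 10 neuroblastoma markers, MYCN and CHGA among them, summed to 5786 to 9413 CPM per library. All 10 genes of the set could be placed on GENCODE 33 in GRCh38 coordinates, and none overlapped another gene of the tables. The 7 metallothioneins lie in one cluster on chromosome 16, with MT3 first at 56589074 and MT1X last, ending at 56684196. Some 50-base stretches of their transcripts also occurred in another gene, not always one of the 7. The share was 18.3% in MT1X, 16.5% in MT1G, 9.87% in MT1M, 7.10% in MT1E, 3.02% in MT2A and 1.22% in MT1F. Counting used no multi-mapping option, so reads from such stretches may have been left out. The levels of these paralogs are therefore uncertain, to an extent that was not tested.

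In water-treated cells the transporters were the most abundant transcripts of the set. Per kilobase of annotated exon, SLC39A10 stood at 20.3 ± 0.358 CPM (SD, n = 2), SLC30A1 at 11.4 ± 0.186, MT2A at 3.90 ± 0.410, MTF1 at 3.54 ± 0.165, MT1X at 1.05 ± 0.0421 and MT1G at 0.525 ± 0.125. MT2A and MTF1 were neighbours in that order whose spreads overlapped. At 50 µM CoCl2 the order changed, and MT2A, at 39.2 ± 0.276 CPM per kilobase, lay above SLC39A10 at 24.3 ± 0.671 and SLC30A1 at 14.7 ± 0.314. MT1X followed at 9.49 ± 0.336, MT1G at 3.74 ± 0.153 and MTF1 at 3.20 ± 0.0588. Over all libraries, 7 of the 10 genes had enough counts to be tested in each batch (MT2A, MT1X, MT1G, MT1F, SLC30A1, SLC39A10 and MTF1). MT1E, MT1M and MT3 did not.

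**Figure D1:**
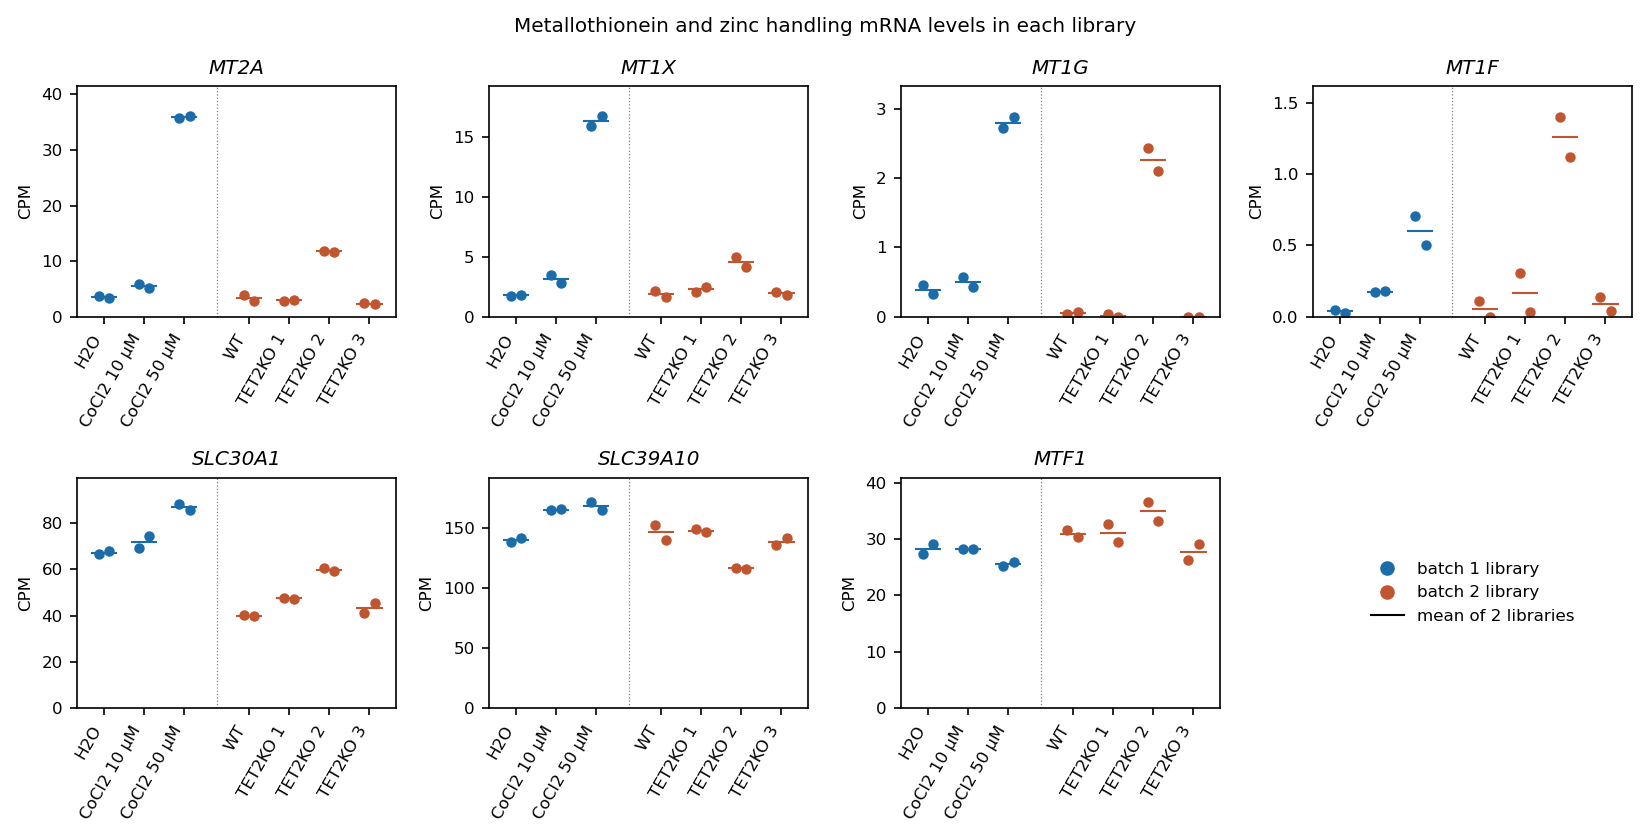
Level of each of the 7 tested genes in CPM (vertical axis, from 0), with 1 point per library and a line at the mean of the 2 libraries of each group; blue marks batch 1 and orange batch 2, and the dotted line separates the batches. The 50 µM CoCl2 libraries are highest in batch 1 for the 4 metallothioneins (MT2A at 35.7 and 36.0 CPM) and the TET2 KO 2 libraries are highest in batch 2 (MT2A at 11.9 and 11.6 CPM).

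At 50 µM CoCl2 the metallothioneins MT2A, MT1X and MT1G were called higher than in H2O, where 30.4% of all genes tested were called higher. MT1F was called higher too, but it could be tested only through its 50 µM level. MT2A, the most abundant, was measured at 3.83 and 3.30 CPM in H2O, 5.84 and 5.17 CPM at 10 µM and 35.7 and 36.0 CPM at 50 µM. The 3 groups did not overlap, and the level stepped up at each dose. Against H2O its log2 fold change was 0.62 (SE 0.12, adjusted p 7.98e-06) at 10 µM and 3.33 (SE 0.07, adjusted p 3.55e-91) at 50 µM, and between the doses it was 2.71 (SE 0.07, adjusted p 1.25e-82). MT1X, a further ubiquitous isoform, gave 1.76 and 1.87 CPM in H2O, 3.47 and 2.86 CPM at 10 µM and 16.0 and 16.8 CPM at 50 µM. Its groups were likewise apart at every step. The log2 fold change of MT1X was 0.79 (SE 0.16, adjusted p 3.23e-05) at 10 µM and 3.17 (SE 0.11, adjusted p 1.34e-65) at 50 µM.

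Of the 7 genes tested, 4 were called higher and 0 lower at 10 µM, where 22.7% of all 13636 genes tested were called (11.6% higher, 11.1% lower). At 50 µM 6 were called higher and 1 lower, against 61.4% of all genes (30.4% higher, 31.1% lower). Between the doses 5 were higher and 1 lower, against 52.8% (26.2% higher, 26.5% lower). A call at 50 µM was thus common among all genes, whereas a call of at least a 2-fold rise, as seen for MT2A, MT1X and MT1G, was made for 2.16% of genes. MT1F is among the 6 called higher at 50 µM and the 5 called higher between the doses. It could be tested only because of its 50 µM level, so its calls are not read against these shares. The median log2 fold change of the 7 was 0.34 at 10 µM and 2.82 at 50 µM, and that of all genes tested was 0.00 at both doses. MT1F enters the median of the 7, so it is not read against that of all genes.

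MT1G and MT1F were scarce and also higher at 50 µM. MT1G had 18 and 13 counts in H2O, 20 and 17 at 10 µM and 85 and 103 at 50 µM. The H2O and 10 µM libraries overlapped in CPM and the 50 µM libraries lay above them. Its level at 50 µM was 7.14 times that in H2O (95% exact binomial interval 4.86 to 10.8, counting error only; log2 fold change 2.82, SE 0.24, adjusted p 7.68e-22), while the log2 fold change at 10 µM was 0.34 (SE 0.37, adjusted p 0.566). MT1F had 2 and 1 counts in H2O, 6 and 7 at 10 µM and 22 and 18 at 50 µM, so its 3 groups were apart although the counts were few. The ratio to H2O was 4.62 (interval 1.27 to 25.3; adjusted p 0.0528) at 10 µM and 15.7 (interval 5.00 to 79.3; adjusted p 1.96e-08) at 50 µM. MT1F passed the filter on low counts only through the 50 µM libraries, so it could enter the test only by being high there.

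The remaining metallothioneins were at the edge of detection in batch 1. MT1E had 1 and 0 counts in H2O, 2 and 0 at 10 µM and 5 and 2 at 50 µM, a ratio of 8.24 at 50 µM with an interval of 1.06 to 371. MT3, the isoform best known from brain, had 1 and 4 counts in H2O, 1 and 2 at 10 µM and 5 and 5 at 50 µM, a ratio of 2.35 (interval 0.733 to 8.77). MT1M had 1 count in all, in 50 µM replicate 2. With no filter on low counts none of these 3 was called in any comparison, and the smallest of their adjusted p-values at 50 µM against H2O was 0.100, for MT1E.

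Summed over the 7 genes, metallothionein transcripts made up 5.89 ± 0.378 CPM in H2O, 9.42 ± 1.02 CPM at 10 µM and 55.9 ± 0.737 CPM at 50 µM. Within that sum, MT2A gave 60.5% ± 2.47 of the metallothionein counts in H2O and 64.1% ± 0.393 at 50 µM, MT1X 30.9% ± 3.22 and 29.3% ± 0.650, and MT1G 6.65% ± 1.16 and 5.01% ± 0.139.

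The 2 zinc transporters rose less than the metallothioneins, and each in its own way. SLC30A1 was at 66.4 and 67.9 CPM in H2O, 69.1 and 74.4 CPM at 10 µM and 88.1 and 85.5 CPM at 50 µM. The groups did not overlap, but the lower 10 µM library lay close to the H2O libraries. Its log2 fold change was 0.10 (SE 0.03, adjusted p 0.0180) at 10 µM and 0.37 (SE 0.03, adjusted p 7.12e-22) at 50 µM, with 0.27 (SE 0.03, adjusted p 1.23e-13) between the doses. The call at 10 µM was lost in DESeq2 (adjusted p 0.256), without H2O replicate 1 (log2 fold change 0.08, adjusted p 0.170) and without 10 µM replicate 2 (log2 fold change 0.04, adjusted p 0.594). It was also lost with no filter on low counts (adjusted p 0.0580) and with all 14 libraries in 1 fit (adjusted p 0.291).

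SLC39A10 reached its higher level already at the low dose. It was at 138 and 142 CPM in H2O, 164.8 and 165.5 CPM at 10 µM and 171.7 and 165.1 CPM at 50 µM. The 2 CoCl2 groups overlapped and both lay above H2O. The log2 fold change was 0.24 (SE 0.02, adjusted p 2.74e-16) at 10 µM and 0.26 (SE 0.02, adjusted p 3.47e-20) at 50 µM. Between the doses it was 0.03, with a 95% interval of -0.02 to 0.07 and an adjusted p of 0.356.

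The mRNA of the zinc sensor itself was not called higher at either dose. MTF1 stood at 27.3 and 29.2 CPM in H2O, 28.3 and 28.2 CPM at 10 µM and 25.2 and 25.9 CPM at 50 µM, so that only the 50 µM libraries lay below the H2O libraries. The log2 fold change was 0.00 (SE 0.05, adjusted p 0.992) at 10 µM and -0.14 (SE 0.05, adjusted p 0.00840) at 50 µM. The 50 µM call was lost in DESeq2 (adjusted p 0.114), with all 14 libraries in 1 fit (adjusted p 0.119), without H2O replicate 2 (-0.10, adjusted p 0.166) and without 50 µM replicate 1 (-0.13, adjusted p 0.0621).

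**Figure D2:**
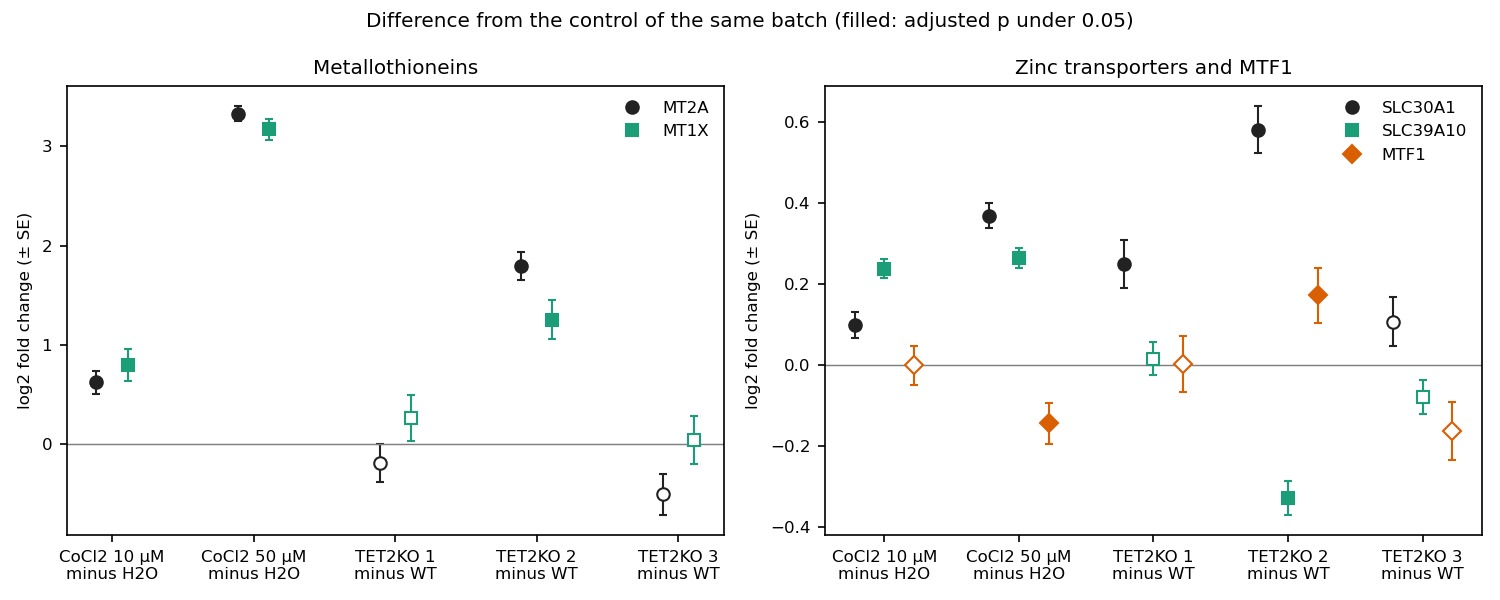
Log2 fold change (vertical axis; bars, SE) of MT2A and MT1X (left) and of SLC30A1, SLC39A10 and MTF1 (right) in each CoCl2 or TET2 KO group against the control of its batch (horizontal axis); filled symbols have an adjusted p under 0.05 and the scales of the panels differ. MT2A and MT1X peak at 50 µM CoCl2 (3.33 and 3.17), with a second rise in TET2 KO 2 (1.79 and 1.25), where SLC39A10 lies at -0.33.

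Among the labelled knockouts, MT2A and MT1X were called higher than in WT in number 2 and in neither of the others. In number 2, 12.0% of all genes tested were called higher. MT1G and MT1F were called there too, but they could be tested only because KO 2 was high. MT2A was measured at 3.89 and 2.92 CPM in WT, 2.93 and 3.00 CPM in TET2 KO 1, 11.9 and 11.6 CPM in TET2 KO 2 and 2.43 and 2.34 CPM in TET2 KO 3. The KO 2 libraries stood apart from all the others, WT and KO 1 overlapped, and the KO 3 libraries were the lowest. On the log2 scale MT2A differed from WT by -0.20 (SE 0.19, adjusted p 0.550) in KO 1, 1.79 (SE 0.14, adjusted p 1.80e-26) in KO 2 and -0.51 (SE 0.20, adjusted p 0.0620) in KO 3. MT1X was at 2.18 and 1.68 CPM in WT, 2.07 and 2.52 CPM in KO 1, 4.99 and 4.20 CPM in KO 2 and 2.10 and 1.83 CPM in KO 3. Both KO 2 libraries lay above every other library of the batch. Its log2 fold change was 0.26 (SE 0.24, adjusted p 0.515), 1.25 (SE 0.20, adjusted p 4.22e-08) and 0.04 (SE 0.25, adjusted p 0.945) in KO 1, 2 and 3.

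The rarer isoforms MT1G and MT1F were nearly absent from WT and were counted mainly in KO 2. MT1G had 2 and 4 counts in WT, 2 and 0 in KO 1, 136 and 116 in KO 2 and 0 and 0 in KO 3. All of these but the KO 2 libraries were within a few reads of 0. The ratio of KO 2 to WT, with counts divided by 2 because a fragment mostly counted as 2 reads, was 42.0 (95% exact binomial interval 14.05 to 206), that to KO 1 was 124 (interval 21.8 to 4935), and MT1G was at least 41.5-fold higher than in KO 3, taken against a floor of 3 fragments (halved counts) over the group. MT1F had 6 and 0 counts in WT, 16 and 2 in KO 1, 78 and 62 in KO 2 and 8 and 2 in KO 3, a ratio of KO 2 to WT of 23.3 (interval 7.66 to 116). Adjusted p-values of KO 2 against WT were 6.36e-18 for MT1G and 7.12e-10 for MT1F. Both genes passed the low-count filter of batch 2 only through KO 2, so their presence among the tested genes depends on that rise.

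MT1E was counted 2 and 4 times in KO 2 and 0 times in every other batch 2 library, and MT3 and MT1M were at 0 throughout batch 2. A count of 0 in a library allows up to 3 fragments, each mostly counted as 2 reads in batch 2, counting error only. The summed metallothionein level was 5.45 ± 1.09 CPM in WT, 5.45 ± 0.154 CPM in KO 1, 19.96 ± 1.16 CPM in KO 2 and 4.44 ± 0.320 CPM in KO 3.

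The rarer isoforms took a larger share of the metallothionein counts in KO 2 than in WT. MT1G gave 11.4% ± 0.552 and MT1F 6.30% ± 0.619 of the metallothionein counts in KO 2, against 1.06% ± 0.666 and 0.877% ± 1.24 in WT, and MT1X gave 23.0% ± 1.47 against 35.5% ± 0.559. At 50 µM the shares of MT1G and MT1F were 5.01% ± 0.139 and 1.08% ± 0.268. KO 2 and 50 µM CoCl2 were sequenced in different batches, so these shares are set side by side and the difference was not tested.

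**Figure D3:**
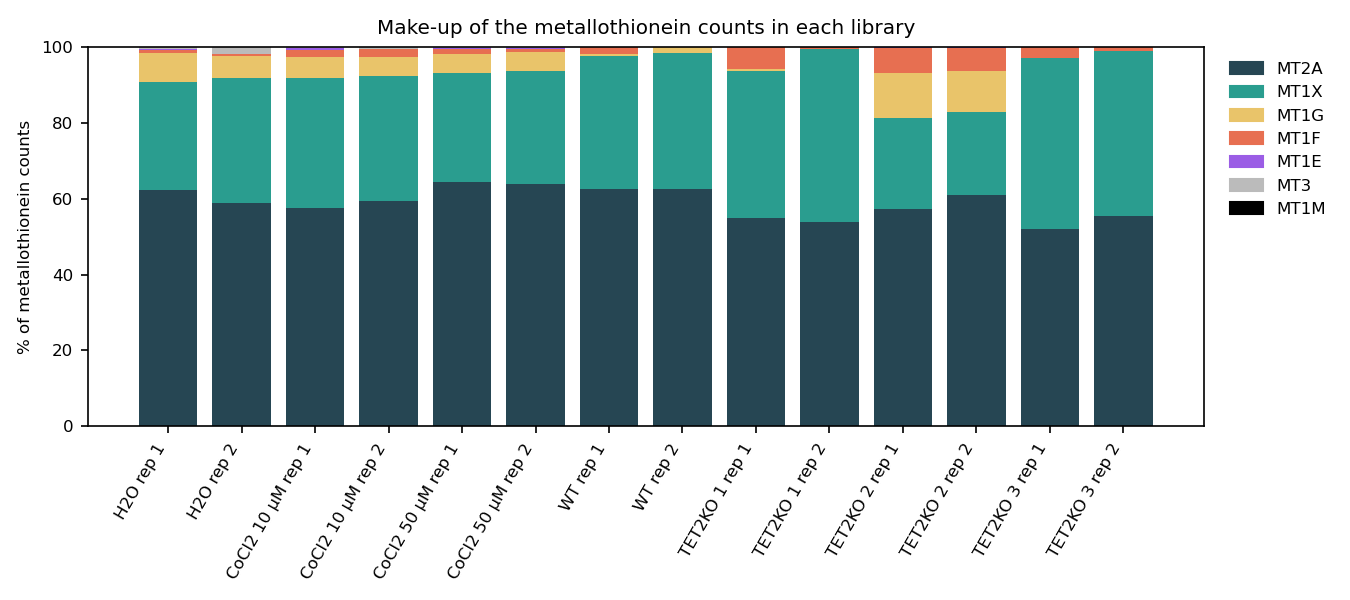
Share of each metallothionein in the summed metallothionein counts of each library (vertical axis, percent; 1 bar per library). MT2A and MT1X fill most of every bar, and the TET2 KO 2 bars have the largest combined share of MT1G and MT1F (group means 11.4% and 6.30%).

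SLC30A1 was the gene of the set with a call in more than 1 knockout. It was at 40.4 and 39.7 CPM in WT, 47.8 and 47.4 CPM in KO 1, 60.7 and 59.1 CPM in KO 2 and 41.1 and 45.3 CPM in KO 3. No groups overlapped, with KO 2 highest and the KO 3 libraries just above WT. Its log2 fold change was 0.25 (SE 0.06, adjusted p 7.26e-04) in KO 1, 0.58 (SE 0.06, adjusted p 4.79e-18) in KO 2 and 0.11 (SE 0.06, adjusted p 0.231) in KO 3.

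SLC39A10 went the other way in KO 2. The importer was at 153 and 140 CPM in WT, 149 and 147 CPM in KO 1, 117 and 116 CPM in KO 2 and 135 and 142 CPM in KO 3. Only KO 2 lay outside the range of the other groups. Its log2 fold change was -0.33 (SE 0.04, adjusted p 7.95e-12) in KO 2, 0.01 (SE 0.04, adjusted p 0.860) in KO 1 and -0.08 (SE 0.04, adjusted p 0.176) in KO 3. SLC39A10 was thus higher in both CoCl2 groups and lower in KO 2, while SLC30A1 and the 2 abundant metallothioneins were higher in all 3 of those groups.

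MTF1 was at 31.6 and 30.3 CPM in WT, 32.7 and 29.5 CPM in KO 1, 36.6 and 33.2 CPM in KO 2 and 26.3 and 29.2 CPM in KO 3. The log2 fold change of 0.17 (SE 0.07, adjusted p 0.0466) in KO 2 passed the threshold narrowly. It missed it in DESeq2 (adjusted p 0.138) and in the fits without WT replicate 1 or 2, KO 1 replicate 1 or 2, or KO 2 replicate 1, with adjusted p-values of 0.0541 to 0.494. It also missed it with no filter on low counts (0.0568), the earlier quasi-likelihood method (0.0520), halved counts (0.0506) and the replicate block (0.0588), all as adjusted p. In KO 3 it was -0.16 (SE 0.07, adjusted p 0.0922).

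In counts of calls over the 7 tested genes, 1 was higher and 0 lower in KO 1, where 17.5% of all 14061 genes tested were called (7.79% higher, 9.72% lower). In KO 2 6 were higher and 1 lower, against 26.3% of all genes (12.0% higher, 14.3% lower). A rise of at least 2-fold, as in MT2A and MT1X, was called for 0.882% of all genes. MT1G and MT1F are among the 6 but could be tested only because KO 2 was high, so nothing is read from their calls against these shares. In KO 3 edgeR and DESeq2 each called 0, against 18.9% of all genes in edgeR (8.9% higher, 9.96% lower), and 2 of the 7 had an unadjusted p under 0.05, both lower. Without WT replicate 2, MT2A (-0.71, adjusted p 0.0251) and SLC39A10 (-0.14, adjusted p 0.0318) were called in KO 3, and without KO 3 replicate 2 MTF1 was (-0.23, adjusted p 0.0414). The median log2 fold change of the 7 was 0.01 in KO 1, 1.25 in KO 2 and -0.08 in KO 3, beside 0.00 for all genes tested in each. MT1G and MT1F enter the median of the 7, so it is not read against that of all genes.

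The knockouts were also compared with each other. MT2A, MT1X, SLC30A1, SLC39A10 and MTF1 differed among the 3 numbers, where 37.6% of all genes did. MT1G and MT1F did as well, but their entry into the test required a high level in one number. KO 2 differed from KO 1 in 6 genes, 5 higher and 1 lower, against 26.5% of all genes (12.9% higher, 13.6% lower). It differed from KO 3 in 7 genes, 6 higher and 1 lower, against 34.2% (16.8% higher, 17.3% lower). MT1G and MT1F are among the genes higher in KO 2 in both comparisons, so nothing is read from their calls against these shares. MT2A was higher in KO 2 by 1.99 (SE 0.14, adjusted p 3.52e-29) on the log2 scale over KO 1 and 2.30 (SE 0.15, adjusted p 6.69e-34) over KO 3. Between KO 3 and KO 1 edgeR and DESeq2 each called 0 of the 7, where edgeR called 8.3% of all genes (4.41% higher, 3.89% lower), and 3 had an unadjusted p under 0.05.

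Averaged over the 3 numbers, 2 genes were called higher than WT and 1 lower, against 18.9% of all genes (7.54% higher, 11.4% lower). They were SLC30A1 (0.31, SE 0.05, adjusted p 4.06e-08), MT1X (0.52, SE 0.19, adjusted p 0.0384) and SLC39A10 (-0.13, SE 0.03, adjusted p 0.00143). MT1X and SLC39A10 were called in KO 2 alone among the numbers. The p-values of the average rest on the spread between libraries of the same number. When the 6 knockout libraries shared 1 coefficient, the differences between the numbers entered the error and none of these genes was called. The adjusted p in that edgeR fit was 0.379 for SLC30A1, 0.604 for MT1X and 0.669 for SLC39A10. The call of MT1X was lost in DESeq2 (adjusted p 0.0899) and in the fits without WT replicate 1 or 2, KO 1 replicate 2, KO 2 replicate 1 or KO 3 replicate 1, with adjusted p-values of 0.0526 to 0.430. That of SLC39A10 was lost without WT replicate 1 (-0.07, adjusted p 0.376), where MT2A (0.58, adjusted p 0.0430) and MT1F (adjusted p 0.0388, against a WT library with 0 counts, so no fold is given) were called. MT1F, with an adjusted p of 0.0529 in the average, was called as well without KO 1 replicate 2 (adjusted p 0.0289) and without KO 3 replicate 2 (adjusted p 0.0352).

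Markers of other cell types were read beside these results. The 10 mesenchymal markers summed to 875 to 890 CPM in WT and 418 to 440 CPM in KO 1. The sum was 555 to 568 CPM in KO 2 and 417 to 429 CPM in KO 3. Of the 9 tested, 1 was called higher and 7 lower in KO 1, where 17.5% of all genes were called. In KO 2 it was 1 and 4, against 26.3%, and in KO 3 it was 1 and 6, against 18.9%. The genes of this list thus did not all move in the same direction. The 10 neuroblastoma markers summed to 7611 to 7783 CPM in WT and 5786 to 5872 CPM in KO 2, a gap made mostly by MYCN, at 4639 ± 55.7 CPM in WT and 2826 ± 15.3 CPM in KO 2. The 7 endothelial markers summed to 12.4 to 12.9 CPM in WT and 2.01 to 5.39 CPM in the labelled knockouts. Of the 4 leukocyte markers, CD68, a lysosomal protein gene, was called higher at both doses and in KO 2, with 5.20 ± 0.156 CPM in H2O, 7.92 ± 0.00483 CPM at 10 µM, 18.9 ± 0.163 CPM at 50 µM, 11.1 ± 0.902 CPM in WT and 14.8 ± 1.005 CPM in KO 2. PTPRC and CD3E, which define leukocytes and T cells, had at most 4 counts in any library. The part of these differences in the zinc-handling results was not tested, and in bulk RNA fewer cells of a type and less RNA per cell cannot be told apart.

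The other genes of the pathway were taken from a list of 27, with 5 further metallothioneins, 9 further exporters of the SLC30 family and 13 further importers of the SLC39 family. None of the 5 metallothioneins was tested, and MT1A, MT1B, MT1H, MT1HL1 and MT4 had 0 to 5 counts in any library. Of the 27, 17 were tested in each batch. At 10 µM 3 were called higher and 4 lower, where 22.7% of all genes were called. At 50 µM 3 were higher and 7 lower, against 61.4% of all genes, and between the doses 1 was higher and 4 lower, against 52.8%. The share called at 50 µM was thus near that of all genes. None of them rose by as much as MT2A.

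SLC30A3, an exporter that loads zinc into synaptic vesicles, had the largest change at 50 µM. It was counted 48 and 47 times in H2O, 23 and 29 times at 10 µM and 10 and 17 times at 50 µM, falling stepwise. Its log2 fold change was -0.78 (SE 0.26, adjusted p 0.0186) at 10 µM and -1.57 (SE 0.31, adjusted p 2.83e-06) at 50 µM. SLC39A11 (-0.34, SE 0.04) and SLC39A13 (-0.27, SE 0.05) also fell at 50 µM, the latter an importer of the secretory pathway. SLC30A10, which mainly exports manganese, was higher at 10 µM (0.55, SE 0.21, adjusted p 0.0429) and lower at 50 µM than at 10 µM (-0.98, SE 0.23, adjusted p 1.54e-04). SLC39A3, a plasma membrane importer, was higher at 10 µM (0.20, SE 0.04), and SLC39A8, which also imports manganese and cadmium, was lower at 50 µM than at 10 µM (-0.24, SE 0.04).

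In the labelled knockouts, 2 of the 17 were called higher and 2 lower in KO 1, where 17.5% of all genes were called, and 3 higher and 1 lower in KO 2, against 26.3%. In KO 3 1 was higher and 1 lower, against 18.9%, and in the average likewise 1 and 1, against 18.9%. The shares called in KO 1 and KO 2 were near those of all genes. SLC30A4, a vesicular exporter, had 134 and 86 counts in WT and 223 and 229 in KO 1, higher by 1.06 on the log2 scale (SE 0.20, adjusted p 1.12e-05). In the same knockout SLC39A13 was lower (-0.23, SE 0.07) and SLC39A14, an importer of zinc and iron, higher (0.19, SE 0.04). SLC30A10 had 29 and 24 counts in WT and 52 and 70 in KO 3, higher by 1.22 (SE 0.39, adjusted p 0.0165), and SLC39A11 was lower there (-0.17, SE 0.06). In the average SLC30A4 was higher (0.62, SE 0.18) and SLC39A13 lower (-0.20, SE 0.06). In KO 2 the called gene with the largest change was SLC39A13 (-0.34, SE 0.08, adjusted p 1.46e-04), followed by the secretory pathway exporters SLC30A6 (0.16, SE 0.05, adjusted p 0.0123) and SLC30A5 (0.15, SE 0.05, adjusted p 0.0140). Among the 3 numbers 9 of the 17 differed, against 37.6% of all genes, with the largest spans between numbers in SLC30A4 (0.66, adjusted p 0.00194), SLC39A4 (0.34, adjusted p 0.0168) and SLC39A13 (0.30, adjusted p 0.00194). SLC30A4 was lower in KO 2 (-0.65, SE 0.19) and in KO 3 (-0.66, SE 0.19) than in KO 1, and so was SLC39A14 (-0.23 and -0.20, each SE 0.04). SLC39A4, an importer of dietary zinc, was lower in KO 2 than in either other number (-0.34 against each, SE 0.12). SLC30A6 was lower in KO 3 than in KO 1 (-0.21, SE 0.05) and higher in KO 2 than in KO 3 (0.29, SE 0.05), and SLC39A13 was lower in KO 2 than in KO 3 (-0.30, SE 0.08).

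**Figure D4:**
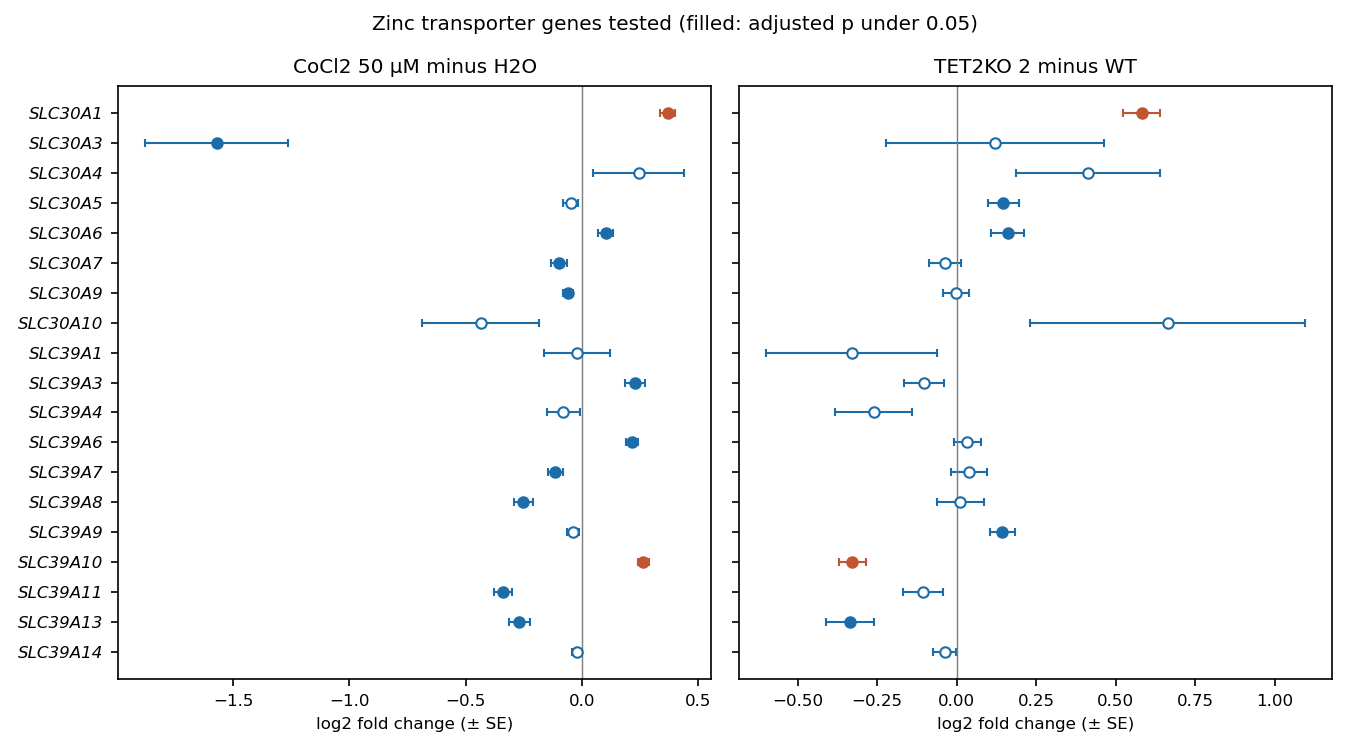
Log2 fold change (horizontal axis; bars, SE) of the 19 tested zinc transporter genes (rows) at 50 µM CoCl2 against H2O (left) and in TET2 KO 2 against WT (right); filled points have an adjusted p under 0.05, and orange marks SLC30A1 and SLC39A10. SLC30A1 lies right of 0 in both panels, SLC39A10 changes side, and SLC30A3 at 50 µM is the farthest point left of 0 (-1.57).

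The genes whose pattern was most like that of a metallothionein were found by the root-mean-square difference over 5 log2 fold changes, 2 of CoCl2 groups against H2O and 3 of labelled knockouts against WT, among 13373 genes. Comparisons within a batch share their control libraries. For MT2A the closest were SAMD11 (0.46), COL6A5 (0.72) and KLK4 (0.76), and for MT1X they were SAMD11 (0.41), CD36 (0.55) and CRTAC1 (0.57). SAMD11 had log2 fold changes of 1.04, 3.55, 0.68, 1.54 and -0.59 at 10 µM, 50 µM, KO 1, KO 2 and KO 3, where MT2A had 0.62, 3.33, -0.20, 1.79 and -0.51. The nearest genes to MT1F (CASQ1, DCT and SPP1, at 1.18 to 1.39) and to MT1G (SST, C3AR1 and SOX8, at 1.68 to 2.41) were farther away, and the values of MT1F and MT1G themselves rest on very few counts.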

How the data were processed

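Polyadenylated RNA was sequenced in 14 libraries (6 in batch 1, 8 in batch 2), from strand-specific oligo-dT libraries per the labels' protocols. The authors deposited raw, whole-number counts for each gene symbol. According to the headers of the files, they counted reads or read pairs over exons of GENCODE 33 protein-coding genes with featureCounts, version 1.5.3 in batch 1 and 2.0.5 in batch 2, with the paired-end option and no strand or multi-mapping option. Trimmomatic 0.36, STAR 2.6.1d and GRCh38 are named in the submitters' processing notes. Of counts from 1 to 10, 39.0% to 42.3% were even in batch 1 and 77.3% to 80.5% in batch 2, where counts are mostly reads.

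Each batch was fitted separately in R 4.3.3 with edgeR 4.0.16 (filterByExpr, TMM, glmQLFit with robust = TRUE and legacy = FALSE, glmQLFTest), 1 coefficient per group. The threshold for a call was 0.05 on the p adjusted by Benjamini-Hochberg over all genes tested. The dispersion was held at 0.0001001 or more, which applied in batch 1 (estimate 7.66e-05) and not in batch 2 (4.63e-04). The SE was obtained as the ratio of the log2 fold change to the root of edgeR's F, CPM uses TMM-scaled totals, and the average weights each knockout number alike. Ratios of low counts carry exact binomial intervals that cover counting error only. The chi-square per gene between replicates was 1.23 to 1.46 in batch 1 and 3.86 to 5.52 in batch 2. Replicates thus differed more in batch 2, where counts are mostly reads, and the cause was not tested. All replicates were kept, with no cutoff applied to this value. On simulated data with 200 changed genes, 91% of 1.5-fold and 96% of 2-fold changes were recovered for 50 µM against H2O over 13605 genes. For KO 2 against WT 91% and 92% were recovered over 13869 genes. Among unchanged genes 14 and 10 were called. The simulated counts were independent, had the same dispersion for every gene and did not come as paired reads. Recovery in the real libraries was therefore not measured.

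The members and gene lists were chosen with earlier results of these data known. The text names all members, the 3 called genes with the largest absolute change of the pathway list per comparison, and the 3 genes closest in pattern to each member with a log2 fold change of at least 1. That rule was written for 6 comparisons with a control, but the design has 5. MYCN and CD68 were singled out from the marker lists after their values were seen, and single values of some list genes are not reported here. Alternatives were DESeq2 1.42.0, other scaling factors, no filter, an earlier quasi-likelihood method, a replicate block, all libraries in 1 fit, summed paralogs, halved batch 2 counts, no dispersion floor and leaving out each library.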

Additional observations from a re-analysis of the deposited data

Results flagged for a closer look

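The difference of the labelled knockouts from WT was not the same for each knockout number. In edgeR's test of the 3 numbers against each other, with Benjamini-Hochberg adjustment, this held for all 7 tested genes. The adjusted p was 3.52e-40 for MT2A, 4.05e-27 for MT1G, 3.32e-13 for SLC30A1, 1.41e-12 for SLC39A10, 1.19e-10 for MT1F, 1.63e-08 for MT1X and 1.02e-04 for MTF1. The same test called 37.6% of all genes. The 4 metallothioneins, SLC30A1 and MTF1 were highest in KO 2 and SLC39A10 was lowest there. MT2A ranged from 2.38 ± 0.0612 CPM in KO 3 to 11.8 ± 0.185 CPM in KO 2 (SD, n = 2), SLC30A1 from 43.2 ± 2.97 to 59.9 ± 1.15 CPM, and SLC39A10 from 116 ± 0.455 CPM in KO 2 to 148 ± 1.72 CPM in KO 1. DESeq2 did not call MT1F (adjusted p 0.0772). MT1G and MT1F could be tested only because KO 2 was high, and rest on 0 to 16 counts per batch 2 library outside KO 2.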

How the results depend on the processing

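Over all alternatives and single genes, 1149 values kept their side of the threshold, 20 passed it only under the alternative and 35 no longer passed it. Direction was checked only for genes called in the reported fit, and 0 of those values reversed. The number of the 7 genes called stayed within 1.5 times of the reported one except in 3 comparisons. For KO 3 against WT (0 called) it was 1 with the earlier quasi-likelihood method and 1 with all 14 libraries in 1 fit (MT2A in both), and 0 to 2 when a library was left out. For KO 3 against KO 1 (0 called) it was 1 with all 14 libraries (SLC30A1, adjusted p 0.0402). For the knockout average (3 called) it was 5 with the earlier method, 5 with all 14 libraries, and 0 when the 6 knockout libraries shared 1 coefficient, which places the differences between the numbers in the error; leaving out a library gave 2 to 4. Leaving out a library gave 3 to 4 at 10 µM, 6 to 7 at 50 µM, 5 to 6 between the doses, 1 in KO 1, 6 to 7 in KO 2 and 7 among the knockouts.

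Deviations of same-numbered replicates had correlations of -0.036 to 0.074 between groups. Every tested gene weighed alike in them, low counts included, so these values cannot exclude that same-numbered replicates were paired. With the replicate block the count was 5 at 10 µM, where MT1F was added (adjusted p 0.0490), 6 in KO 2, where MTF1 was not called (adjusted p 0.0588), and in the other comparisons the count did not move. The MT1 and MT2 counts were also summed, which removes the split between paralogs but does not restore reads left uncounted. The log2 fold change of that sum was 0.68 at 10 µM, 3.26 at 50 µM, 1.88 in KO 2, 0.00 in KO 1 and -0.29 in KO 3. DESeq2 did not call MT1F between the doses (adjusted p 0.0555) or between KO 2 and KO 1 (adjusted p 0.166). The other causes of a changed call were not tested. Few counts limit MT1F and MT1G, and MT1E, MT1M and MT3 cannot be compared at this depth.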

Other observations

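The controls of the batches differed in their zinc-handling transcripts. MT1G had 18 and 13 counts in H2O against 2 and 4 in WT, although the WT totals were larger. MT3 was counted in every batch 1 library, 18 times in all, and was at 0 in every batch 2 library. SLC30A1 was at 66.4 and 67.9 CPM in H2O and at 40.4 and 39.7 CPM in WT, while MT2A lay in like ranges, at 3.30 to 3.83 CPM in H2O and 2.92 to 3.89 CPM in WT. Batch, culture and the unit of a count differ between these groups and cannot be told apart, so no test was made.

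MT1H, whose RefSeq promoter window held 8 metal core matches, the most of the metallothionein windows searched, had 1 count in H2O replicate 1, 5 counts in KO 2 replicate 2 and 0 in the other libraries. MT1A had 1 count, also in KO 2 replicate 2. MT1B and MT4, with 3 metal core matches each, were at 0 in every library, which allows up to 3 fragments in each.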
